A study of Mus musculus with 10 samples.

Results

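The genes described are 7 that mark pericytes and immature mural cells or belong with those that do: the RGS genes Rgs5, Rgs4 and Rgs2, the potassium channel pair Kcnj8 and Abcc9, the receptor Pdgfrb and the proteoglycan Cspg4. They were chosen by gene symbol, and all 7 were found among the 28165 genes of the count table. Aortic smooth muscle cells of mouse embryos at day 15.5 were compared between Eln+/+ embryos, which make elastin, and Eln-/- embryos, in which both copies of the elastin gene are mutant. Both genotypes came from crosses of Eln(+/-) mice and carried Acta2-GFP, a reporter for smooth muscle actin, and none was treated. Cells that were GFP+, CD31- and DAPI- were sorted, so the gate asked for reporter signal and removed endothelial and dead cells, and pericytes were not selected by a marker of their own. Each genotype had 5 libraries. The elastin allele and the number of embryos per library are not stated in the labels; the p-values measure library-to-library spread only, and some of it may be technical.

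Mural cells are the contractile and supporting cells of the vessel wall, smooth muscle cells around large vessels and pericytes around capillaries. Platelet-derived growth factor B released by endothelium recruits them through the receptor PDGFR-beta, encoded by Pdgfrb. RGS proteins speed the hydrolysis of GTP by G protein alpha subunits and so shorten signalling from vasoactive receptors. Kir6.1, encoded by Kcnj8, forms the pore of the vascular ATP-sensitive potassium (KATP) channel, and SUR2, encoded by Abcc9, is its regulatory subunit. These channels couple the metabolic state of a mural cell to its membrane potential and tone.

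Library totals ran from 26951733 to 63866416 counts. Between 15089 and 22951 genes had a count in each library, and the 3 libraries with the fewest genes were Eln+/+ replicate 1, Eln-/- replicate 4 and Eln-/- replicate 5. Eln, the elastin gene, was counted 2409 to 105866 times per Eln+/+ library and 0 to 36 times per Eln-/- library, so the labels and the targeted gene match. Even this difference did not pass the test used below, with a log2 fold change of -12.19 ± 1.64 (SE) and an adjusted p of 0.152 by edgeR's quasi-likelihood test, and the common biological coefficient of variation between libraries of a genotype was 1.16. Smooth muscle markers had a summed level of 1159 to 2791 CPM in Eln+/+ and 1233 to 4359 CPM in Eln-/-. CPM are counts per 1e+06 of a library's total after TMM scaling. Acta2, Tagln, Cnn1, Myl9, Tpm2 and Actg2 had at least 228 counts in every library. Smtn had 0 counts in 1 library and Myocd in 2, and Myh11 and Lmod1 had 1 count at their lowest. The endothelial marker Pecam1, which encodes the CD31 used in the gate, reached at most 7.70 CPM. Fibroblast markers summed to 2891 to 5519 CPM in Eln+/+ against 1664 to 3678 CPM in Eln-/-. Markers of red blood cells summed to 331 to 18883 CPM in Eln+/+ against 22.3 to 5157 CPM in Eln-/-, highest in Eln+/+ replicate 1 and, within Eln-/-, in replicate 4. Endothelial markers summed to 15.1 to 86.3 and 33.1 to 79.4 CPM, glial markers to 16.3 to 172 and 13.7 to 92.9 CPM, and macrophage markers to 0.132 to 17.8 and 0.0377 to 8.68 CPM in Eln+/+ and Eln-/- libraries. Cardiac muscle markers summed to 11.1 to 972 CPM in Eln+/+ and 31.7 to 945 CPM in Eln-/-. Of the listed markers in the table, 0 were without counts in all libraries, and their part in the values below was not tested.

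Rgs5 was the most abundant of the 7 genes per length of transcript. The CPM of a gene was divided by the kilobases of its exons to compare genes with one another. In Eln+/+ libraries the mean level was 152 ± 77.1 CPM per kilobase for Rgs5 (SD, n = 5), 59.7 ± 28.9 for Kcnj8 and 34.3 ± 19.7 for Rgs4. The other members were lower, at 5.28 ± 4.83 CPM per kilobase for Pdgfrb, 3.68 ± 2.37 for Abcc9, 1.47 ± 1.92 for Rgs2 and 0.773 ± 0.824 for Cspg4. The mean levels stood in the same order in Eln-/- libraries, from 286 ± 176 CPM per kilobase for Rgs5 to 1.60 ± 2.29 for Cspg4. Among all 15204 genes ranked this way, Rgs5 ranked between 386 and 831 in the Eln+/+ libraries and between 57 and 699 in the Eln-/- libraries.

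**Figure D1:**
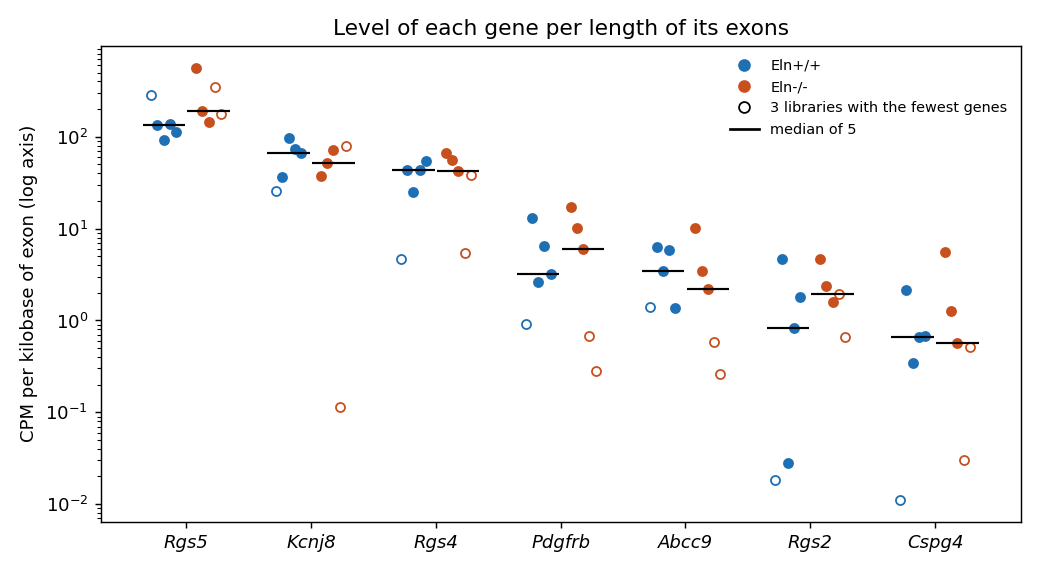
Level of each gene in CPM per kilobase of exon on a log axis, with 1 point for each of the 10 libraries, a bar at the median of each genotype's 5 and the genotypes in separate colours. Rgs5, Kcnj8 and Rgs4 have the 3 highest medians in both genotypes, with 1 very low Kcnj8 point, and Cspg4 and Rgs2 reach the lowest levels.

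Within libraries, Rgs5 was above Rgs4 in 10 of 10 and above Kcnj8 in 9 of 10, and Rgs4 was above Pdgfrb in 10 of 10. The other neighbours in this order were less settled. Kcnj8 was above Rgs4 in 6 of 10 libraries, Pdgfrb above Abcc9 in 8, Abcc9 above Rgs2 in 7 and Rgs2 above Cspg4 in 8. The ranges of each of these neighbouring pairs over the libraries overlapped, so their order within the spread is not settled by these data.

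Rgs5 (ENSMUSG00000026678) lies on chromosome 1 at 169655501 to 169695813, forward strand, in GRCm38 and is the RGS gene most used to mark pericytes. Its level in Eln+/+ replicates 1 to 5 was 1302, 608, 423, 622 and 507 CPM. In Eln-/- replicates 1 to 5 it was 2578, 870.0, 659, 1598 and 805 CPM. The Eln+/+ library with few genes detected was the highest of its genotype, and above it stood only Eln-/- replicates 1 and 4, so the groups overlapped. Eln+/+ and Eln-/- averaged 692 ± 351 and 1302 ± 800.3 CPM (SD, n = 5 each). The log2 fold change of Eln-/- against Eln+/+ was 0.91 ± 0.55 (SE), with an unadjusted p of 0.127 and an adjusted p of 1.00 by edgeR's quasi-likelihood test. That is the smallest unadjusted p of the 7 genes, and it ranked Rgs5 at place 332 of the 15718 genes tested.

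The Rgs5 comparison depended on the libraries kept and on their scaling. Without the 3 libraries with the fewest genes, the 4 Eln+/+ values averaged 539.9 ± 93.3 CPM and the 3 Eln-/- values 1369 ± 1052 CPM (SD). In these 7 libraries Rgs5 no longer overlapped between genotypes, which held for 3.87% of all genes tested, and it was the only one of the 7 genes of which this was true. The summed smooth muscle markers did not overlap in these 7 libraries either, at 1159 to 2791 CPM in Eln+/+ and 3218 to 4359 CPM in Eln-/-. Their part in the Rgs5 difference was not tested. The log2 fold change of Rgs5 was then 1.37, with an unadjusted p of 0.0245 and an adjusted p of 1.00 by edgeR. Without Eln-/- replicate 1 alone, the highest library, it was 0.50 with an unadjusted p of 0.335 by edgeR. Without that library and Eln+/+ replicate 2 it was 0.47 with an unadjusted p of 0.418 by edgeR. Without Eln+/+ replicate 1 alone it was 1.28 with an unadjusted p of 0.0328 by edgeR. Over all 10 libraries, limma-voom with sample quality weights gave 0.65 with an unadjusted p of 0.0449. None of these fits put Rgs5 past the adjusted threshold. Scaled to total counts alone, Rgs5 stood at 731, 830, 485, 751 and 574 CPM in Eln+/+ replicates 1 to 5. On the same scale it stood at 3340, 1146, 765, 776 and 681 CPM in Eln-/- replicates 1 to 5. On that scale Eln-/- replicates 1 and 2 lay above every Eln+/+ library and the other 3 lay among them, also with the 7 libraries alone, where replicate 3 lay below Eln+/+ replicate 2.

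Rgs4, whose product acts on the Gi and Gq classes of alpha subunits, is the neighbour of Rgs5. It lies on the reverse strand of chromosome 1 at 169741477 to 169747642, 45663 bases from Rgs5 with 0 annotated genes between them. Rgs4 stood at 14.4, 134, 78.4, 134 and 171 CPM in Eln+/+ replicates 1 to 5. It stood at 207, 175, 131, 16.6 and 118 CPM in Eln-/- replicates 1 to 5. The groups overlapped through almost their whole range, and 1 library of each genotype, both among the 3 with the fewest genes, was far below the other 4. The means were 106 ± 61.0 CPM in Eln+/+ against 129 ± 72.4 CPM in Eln-/-, with a log2 fold change of 0.28 ± 0.70 (SE) and an adjusted p of 1.00 by edgeR.

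The proportion of Rgs5 to Rgs4 was furthest from that of the others in those 2 libraries. The log2 ratio of Rgs5 to Rgs4 per length lay between 1.02 and 3.08 in the other 8 libraries. Eln+/+ replicate 1 had a ratio of 5.94 and Eln-/- replicate 4 one of 6.03, where Rgs5 was high and Rgs4 low. The mean log2 ratio was 2.42 ± 1.99 in Eln+/+ and 2.98 ± 1.79 in Eln-/- (SD, n = 5 each), a difference smaller than the spread.

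Rgs2, an RGS protein that acts on Gq and is linked to vascular tone, is on chromosome 1 at 143999338 to 144004161, reverse strand. Rgs2 stood at 0.0661, 16.9, 0.101, 3.02 and 6.51 CPM in Eln+/+ replicates 1 to 5. It stood at 16.9, 8.61, 5.75, 7.12 and 2.41 CPM in Eln-/- replicates 1 to 5. The lowest pair, Eln+/+ replicates 1 and 3, rested on 1 and 5 counts, while every Eln-/- library had between 64 and 1233, and the highest library of each genotype had nearly the same level. The means were 5.31 ± 6.98 CPM in Eln+/+ against 8.16 ± 5.39 CPM in Eln-/-, with a log2 fold change of 0.62 ± 1.24 (SE) and an adjusted p of 1.00 by edgeR. Without Eln+/+ replicate 2 the log2 fold change was 1.75. In bulk libraries such as these, fewer cells with a transcript and less of it per cell cannot be told apart.

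**Figure D2:**
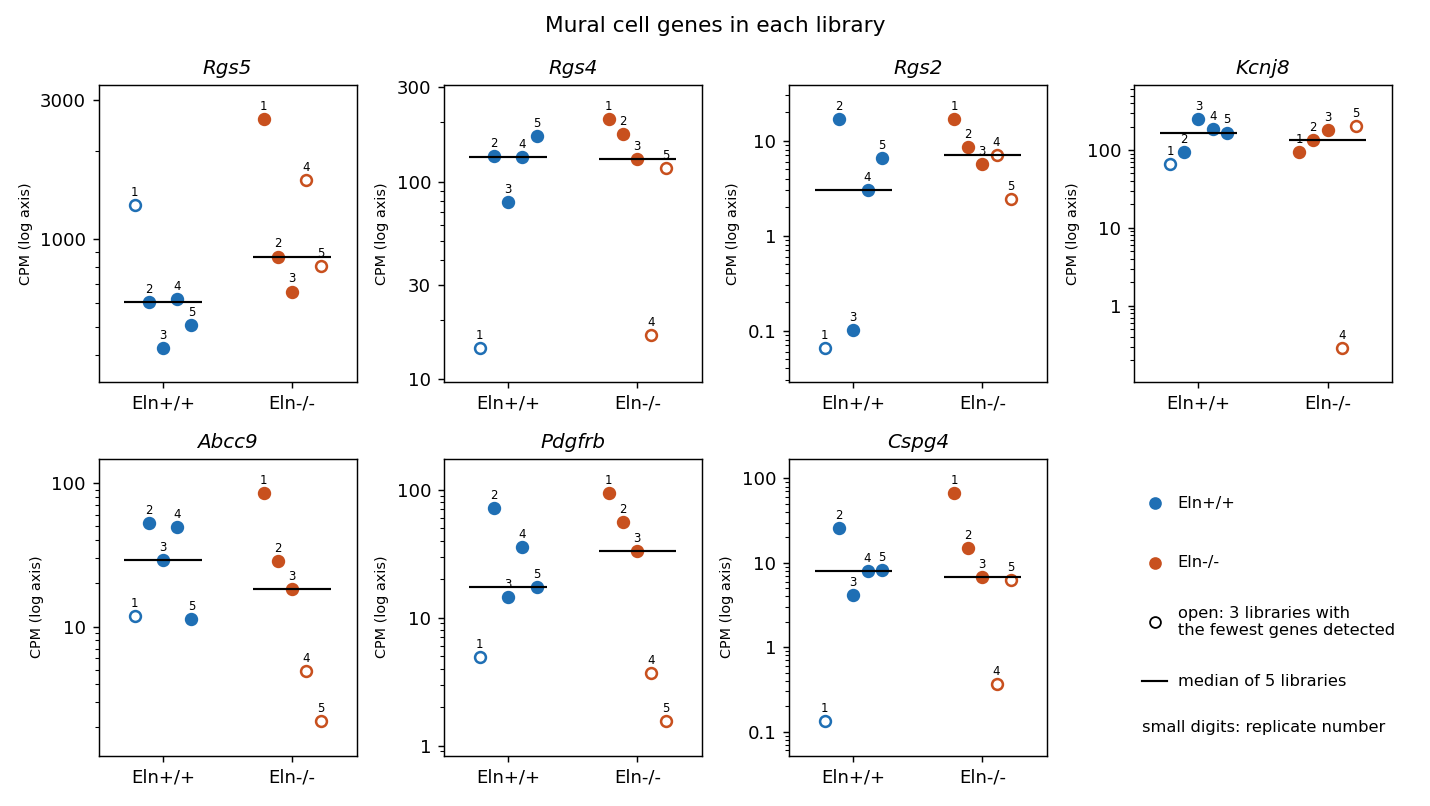
CPM of each of the 7 genes on log axes, with a point for each library, its replicate number beside it, and a bar at the median of the 5 libraries. Open points are the 3 libraries with the fewest genes detected, and every panel shows the genotypes overlapping.

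Kcnj8 encodes the channel pore and lies on chromosome 6 at 142564837 to 142571614, reverse strand. Its level in Eln+/+ replicates 1 to 5 was 65.1, 93.0, 248, 187 and 168 CPM. In Eln-/- replicates 1 to 5 it was 94.3, 133, 183, 0.290 and 204 CPM. Of the Eln-/- libraries 4 lay inside the range of Eln+/+, and replicate 4 lay far below every other library, with 4 counts where the others had 985 to 12235. The means were 152 ± 73.7 CPM in Eln+/+ against 123 ± 80.7 CPM in Eln-/-, with a log2 fold change of -0.31 ± 0.96 (SE) and an adjusted p of 1.00 by edgeR. Without Eln-/- replicate 4 the log2 fold change was 0.02.

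Some other abundant transcripts also had very few counts in that library. The log2 of the mean CPM, as given by edgeR, was at least 7 for 1454 genes, Eln and Kcnj8 left out. Of these, 6 (0.413%) had fewer than 10 counts in Eln-/- replicate 4, against 0 or 1 in each of the other 9 libraries. Whether these low counts and that of Kcnj8 share a cause was not tested.

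Abcc9, the regulatory subunit, is the neighbour of Kcnj8 on the same strand, at 142587862 to 142702315, with 16247 bases and 0 annotated genes between them. Abcc9 stood at 11.8, 53.0, 28.9, 49.2 and 11.3 CPM in Eln+/+ replicates 1 to 5. It stood at 85.2, 28.7, 18.3, 4.94 and 2.19 CPM in Eln-/- replicates 1 to 5. The Eln-/- libraries spanned a wider range and held both the highest and the lowest value, with both genotypes overlapping between. The means were 30.8 ± 19.9 CPM in Eln+/+ against 27.9 ± 33.8 CPM in Eln-/-, with a log2 fold change of -0.15 ± 0.89 (SE) and an adjusted p of 1.00 by edgeR. Without Eln-/- replicate 1 its log2 fold change was -1.19. Exons of Abcc9 overlap those of 5330439B14Rik, on the opposite strand, by 158 bases, and that gene had 44 counts over all libraries.

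The subunits of the channel pair did not keep a fixed proportion. The log2 ratio of Kcnj8 to Abcc9 per length was 4.18, 2.53, 4.82, 3.64 and 5.60 in Eln+/+ replicates 1 to 5. The Eln-/- libraries, in the same order, had ratios of 1.86, 3.93, 5.03, -2.19 and 8.23. Kcnj8 exceeded Abcc9 in 9 of 10 libraries, and the Eln-/- libraries held both extremes. The extremes were replicates 4 and 5, both among the 3 libraries with the fewest genes. Kcnj8 had 4 counts in replicate 4, and Abcc9 had 58 in replicate 5. The mean log2 ratio was 4.15 ± 1.17 in Eln+/+ and 3.37 ± 3.87 in Eln-/- (SD, n = 5 each), a difference smaller than the spread.

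Each neighbouring pair shares a stretch of chromosome, so the promoters of its members are shown side by side, from 250 bases before to 50 after the RefSeq transcript start (GRCm38.p6). Of the 7 genes 6 had an entry. They are read 5′ to 3′ on the strand of the gene: Rgs5 at chr1:169655251-169655550 (forward strand), Rgs4 at chr1:169747593-169747892 (reverse strand), Kcnj8 at chr6:142571565-142571864 (reverse strand) and Abcc9 at chr6:142702225-142702524 (reverse strand). Capitals mark matches, on either strand, to any of the motifs named after the sequences.
Rgs5: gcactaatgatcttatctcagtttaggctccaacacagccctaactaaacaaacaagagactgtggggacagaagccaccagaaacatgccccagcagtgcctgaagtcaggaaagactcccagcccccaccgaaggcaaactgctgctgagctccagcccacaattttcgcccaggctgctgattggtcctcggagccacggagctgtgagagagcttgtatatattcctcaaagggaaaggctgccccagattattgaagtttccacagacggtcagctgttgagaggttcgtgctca
Rgs4: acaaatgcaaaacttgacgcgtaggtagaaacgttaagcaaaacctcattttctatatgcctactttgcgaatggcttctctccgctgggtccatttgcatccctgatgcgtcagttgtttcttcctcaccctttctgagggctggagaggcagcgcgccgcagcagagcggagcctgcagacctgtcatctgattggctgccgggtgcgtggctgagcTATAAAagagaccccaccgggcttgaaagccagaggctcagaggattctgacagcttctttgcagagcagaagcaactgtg
Kcnj8: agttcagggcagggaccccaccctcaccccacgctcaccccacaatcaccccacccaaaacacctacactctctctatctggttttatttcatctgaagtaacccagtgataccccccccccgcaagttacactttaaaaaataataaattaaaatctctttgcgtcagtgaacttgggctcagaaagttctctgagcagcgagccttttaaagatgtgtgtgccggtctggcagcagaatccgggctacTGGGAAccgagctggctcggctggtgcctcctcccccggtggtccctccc
Abcc9: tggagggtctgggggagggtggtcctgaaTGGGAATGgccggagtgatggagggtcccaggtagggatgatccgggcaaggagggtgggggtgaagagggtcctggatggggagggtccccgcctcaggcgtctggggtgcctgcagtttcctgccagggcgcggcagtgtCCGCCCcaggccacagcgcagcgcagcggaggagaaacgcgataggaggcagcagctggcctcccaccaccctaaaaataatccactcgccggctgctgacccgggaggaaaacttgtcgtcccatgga

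The motifs searched on both strands were the TATA box (TATAAA), the CArG box of serum response factor, the core of the Notch effector RBPJ (TGGGAA), the GC box (GGGCGG) and the TEAD core (CATTCC). Counting the first transcribed base as 1, Rgs4 had TATAAA at -31 to -26 and Kcnj8 had TGGGAA at 1 to 6. Abcc9 had TGGGAA at -221 to -216, which overlaps a CATTCC match on the other strand at -219 to -214, and a GC box on the other strand at -79 to -74. In Rgs5 no match to these motifs as spelled was found in this window. Its sequence holds tatatat, and other spellings of the TATA box were not searched. Of 32851 RefSeq promoters of this length, 13.6% held TATAAA, 1.63% a CArG box, 25.6% TGGGAA, 35.7% GGGCGG and 14.7% CATTCC. A match is a description of the letters, and the RefSeq start of Abcc9 differs from the start in the annotation used for gene spans.

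Pdgfrb, the receptor for platelet-derived growth factor B, lies on chromosome 18 at 61045150 to 61085061, forward strand. Its level in Eln+/+ replicates 1 to 5 was 4.96, 71.8, 14.5, 35.9 and 17.5 CPM. In Eln-/- replicates 1 to 5 it was 94.2, 55.6, 33.0, 3.70 and 1.55 CPM. The 3 libraries with the fewest genes were the 3 lowest, below 5 CPM, and the groups overlapped. The means were 28.9 ± 26.5 CPM in Eln+/+ against 37.6 ± 38.7 CPM in Eln-/-, with a log2 fold change of 0.38 ± 1.01 (SE) and an adjusted p of 1.00 by edgeR. Without Eln-/- replicate 1, the highest library, the log2 fold change was -0.30, and without that library and Eln+/+ replicate 2, the next highest, it was 0.37.

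Cspg4, which encodes the proteoglycan NG2, a surface marker of pericytes and of glial precursors, lies on chromosome 9 at 56865033 to 56899870, forward strand. Cspg4 stood at 0.132, 25.8, 4.12, 7.93 and 8.13 CPM in Eln+/+ replicates 1 to 5. It stood at 67.2, 15.1, 6.80, 0.363 and 6.18 CPM in Eln-/- replicates 1 to 5. The lowest library of each genotype had 2 and 5 counts, Eln-/- replicate 1 was the highest of all, and the others overlapped. The means were 9.22 ± 9.83 CPM in Eln+/+ against 19.1 ± 27.4 CPM in Eln-/-, with a log2 fold change of 1.05 ± 1.25 (SE) and an adjusted p of 1.00 by edgeR. Without Eln-/- replicate 1 the log2 fold change was -0.38, and without that library and Eln+/+ replicate 2 it was 0.48.

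Set together, none of the 7 genes differed between genotypes beyond the spread of the libraries. All 7 passed the filter on low counts. By edgeR, 0 of 7 had an adjusted p under 0.05 and 0 of 7 an unadjusted p under 0.05, and DESeq2, limma-voom and limma-voom with sample quality weights also put 0 of 7 past the adjusted threshold. Over all 15718 genes tested edgeR put 0% past that threshold, while DESeq2 put 6 genes past it, limma-voom 2 and the weighted fit 7. By edgeR 81 genes had an unadjusted p under 0.05, far fewer than 5% of the genes tested. With so few small p-values over all genes, 0 of 7 does not show that the members are unchanged. The log2 fold change was positive for 5 members and negative for 2, with a median of 0.38, against a median of 0.02 and 51.5% positive over all genes tested. In the 10 libraries 0 of the 7 genes had CPM that did not overlap between genotypes, against 0.305% of all genes tested.

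**Figure D3:**
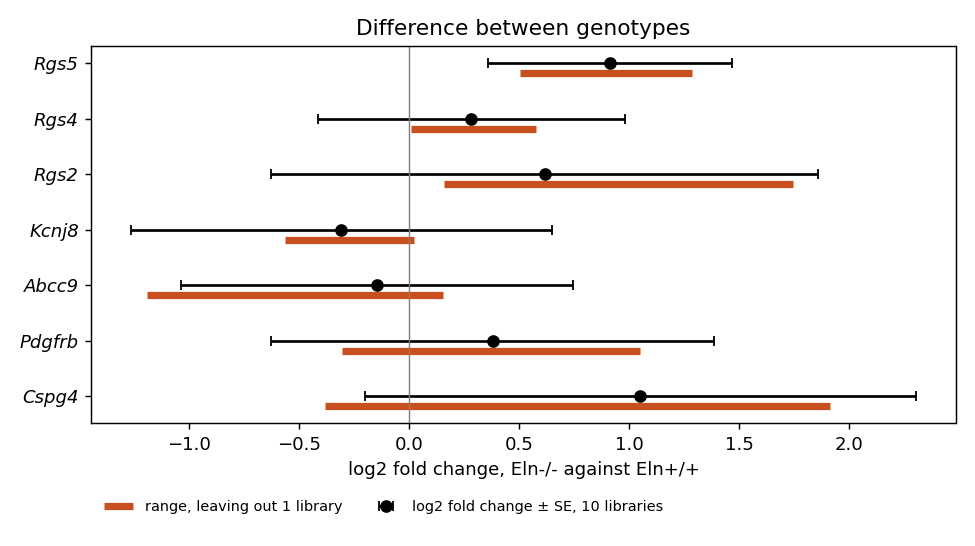
Log2 fold change of Eln-/- against Eln+/+ for each gene, with the point and black bar giving the edgeR estimate ± SE over 10 libraries and the orange bar the range when each library was left out in turn. The range stays above 0 for Rgs5, Rgs4 and Rgs2 and crosses 0 for Kcnj8, Abcc9, Pdgfrb and Cspg4.

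The members differed from one another in how far they varied among libraries. The root mean square deviation of log2 CPM from a gene's own mean was 0.77 for Rgs5, 1.31 for Rgs4, 1.54 for Abcc9, 1.87 for Pdgfrb, 2.45 for Cspg4, 2.47 for Rgs2 and 2.68 for Kcnj8. Of the 4287 genes whose log2 of the mean CPM was at least 5, 2838 spread more widely than Rgs5 and 313 more widely than Kcnj8. Rgs2 and Cspg4 are furthest from their means in libraries with 1 to 5 counts, and Kcnj8 deviates furthest in Eln-/- replicate 4.

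In Eln+/+ replicate 1 and Eln-/- replicate 4, both with few genes detected, Rgs5 lay above its own mean, while Rgs4, Kcnj8, Abcc9, Pdgfrb and Cspg4 lay below theirs. Rgs2 lay below its mean in the first and above it in the second. In the other library with few genes, Eln-/- replicate 5, Rgs5 lay slightly below its mean. The first and second also carried the lowest scaling factors, 0.562 and 0.486, against 0.847 to 1.37 in the other 8, and a low factor raises every CPM of a library.

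**Figure D4:**
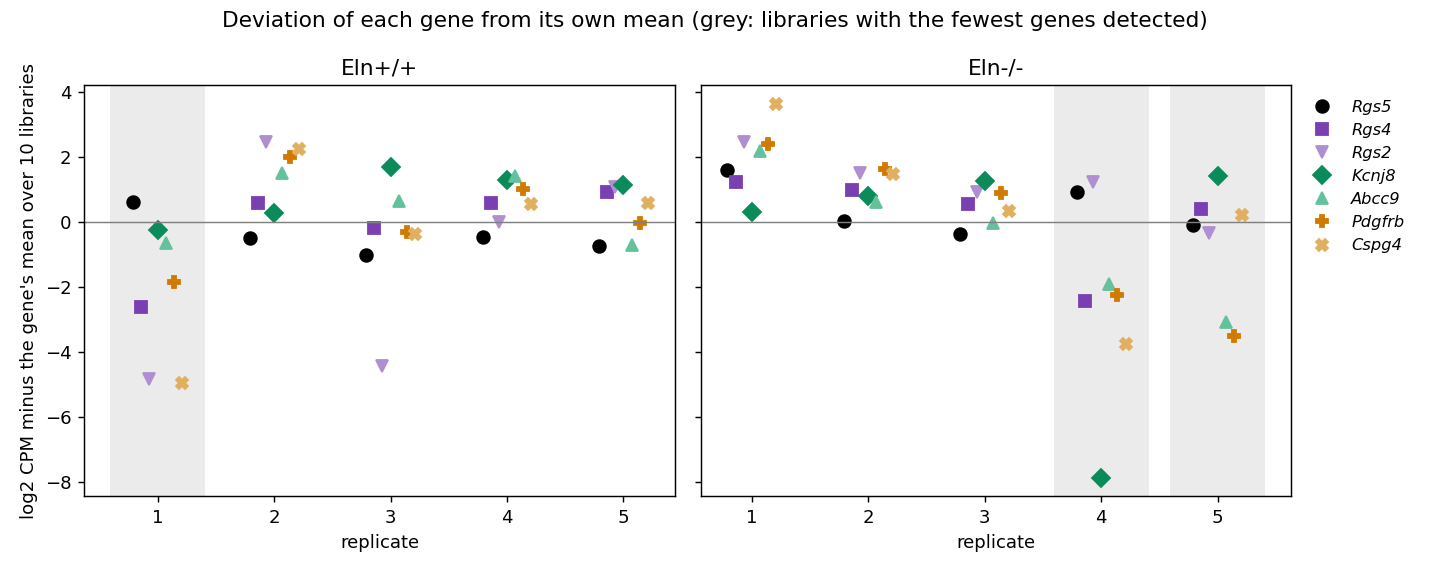
Log2 CPM of each gene minus its own mean over the 10 libraries, by replicate, with Eln+/+ on the left and Eln-/- on the right. In the shaded libraries, which have the fewest genes detected, the genes scatter widely, and Kcnj8 is far below its mean in Eln-/- replicate 4.

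Likeness of pattern was measured as the root mean square difference between centred log2 CPM, where 0 means that 2 genes moved in parallel, and it is a description over libraries that share depth and scaling. Over 10 libraries the closest of the 21 member pairs was Abcc9 with Pdgfrb, at 0.73. From Pdgfrb, Abcc9 ranked 36 among 4286 genes. Over the 7 libraries with more genes the closest pair was Rgs5 with Rgs4, at 0.58, where they had differed by 1.72 over all 10. Pdgfrb with Cspg4 and Rgs5 with Pdgfrb followed at 0.59 each in those 7 libraries. The channel pair Kcnj8 and Abcc9 differed by 2.59 over 10 libraries and by 1.26 over 7, where Abcc9 was 4062 in order of likeness among 4286 genes. Over 10 libraries Rgs4 ranked 3106 of 4286 genes in likeness to Rgs5, and Abcc9 ranked 1807 in likeness to Kcnj8. Over 7 libraries Rgs4 ranked 147 in likeness to Rgs5, so the order of these ranks, each taken from a different gene, depended on the libraries kept. By the difference itself, Rgs5 with Rgs4 was the closer neighbouring pair in both sets, at 1.72 against 2.59 and 0.58 against 1.26.

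Among all genes whose log2 of the mean CPM was at least 5, those closest to Rgs5 over 10 libraries were Srsf5, Hes1 and Jund. Their differences from Rgs5 were 0.37, 0.41 and 0.49, against a median of 1.34 over all these genes. Srsf5 encodes a splicing factor, Hes1 a transcriptional repressor downstream of Notch, and Jund a subunit of the AP-1 transcription factor. Hes1 had 70.5 ± 18.8 CPM in Eln+/+ against 136 ± 55.5 CPM in Eln-/- (SD, n = 5 each). Its log2 fold change was 0.95 ± 0.40 (SE) and did not pass the adjusted threshold by edgeR. The groups overlapped, with 96.6 CPM in Eln+/+ replicate 1 against 80.5 and 90.1 CPM in Eln-/- replicates 3 and 5. Hes1 was picked for following Rgs5 over both genotypes, so its difference is not separate from that of Rgs5. Closest to Kcnj8 were Mospd1, Rnf13 and Med19, at 0.33, 0.34 and 0.42 against a median of 2.72. Those 3 genes had 1, 1 and 0 counts in Eln-/- replicate 4, the library in which Kcnj8 had 4. Closest to Pdgfrb were Gpc4, a glypican, Aars, an aminoacyl-tRNA synthetase, and Usp10, a deubiquitinase, at 0.42, 0.50 and 0.51 against a median of 2.08.

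Other genes of mural cells did not move one way. Of 22 further mural and pericyte genes, 21 were in the table and 19 were tested. Of these 0 were called higher and 0 lower by edgeR, with 0 at an unadjusted p under 0.05, 9 had a positive and 10 a negative fold change, and the median was -0.02. Heyl, a Notch effector of vascular smooth muscle, had 73.0 ± 54.1 CPM in Eln+/+ against 130.4 ± 97.2 CPM in Eln-/-, with a log2 fold change of 0.84 ± 0.73 (SE). Ndufa4l2, a mitochondrial protein induced by hypoxia, had 84.0 ± 20.7 and 70.3 ± 28.1 CPM. Gucy1a1, a subunit of the nitric oxide receptor guanylate cyclase, had 78.2 ± 66.3 and 71.6 ± 63.1 CPM.

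The remaining RGS genes were lower than Rgs5 and gave no calls. The table held 16 of them and 8 were tested, 0 were called in either direction and 0 had an unadjusted p under 0.05 by edgeR, and their median log2 fold change was 0.06 with 5 positive and 3 negative. Rgs19 had 47.4 ± 7.32 CPM in Eln+/+ against 48.0 ± 16.4 CPM in Eln-/-, and Rgs3 had 16.5 ± 12.5 and 22.5 ± 17.5 CPM. Rgs7bp, which encodes a binding protein that anchors RGS proteins to membranes, had 8.39 ± 3.06 and 5.79 ± 8.52 CPM.

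Of the G protein alpha subunits, the family that includes the Gi and Gq classes on which Rgs4 acts, 10 of 13 were tested. By edgeR 0 were called in either direction and 1 had an unadjusted p under 0.05, and the median log2 fold change was -0.19 with 3 positive and 7 negative. Gnas, the stimulatory subunit, had 619 ± 407 CPM in Eln+/+ against 451 ± 441 CPM in Eln-/-. Gnai3, an inhibitory subunit, had 311 ± 166 and 232 ± 134 CPM, and Gna11, of the Gq class, had 105 ± 53.3 and 83.1 ± 65.7 CPM. The SDs exceeded the difference for each of these 3.

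The second KATP pair, better known from pancreatic beta cells and neurons, was scarce. Kcnj11, the pore Kir6.2, had 69 counts over all libraries and 0 in 7 of them, and was not tested. Abcc8, the regulatory subunit SUR1, had 879 counts in all, 683 of them in Eln-/- replicate 1, and 0 in 4 libraries. The means were 0.128 ± 0.251 CPM in Eln+/+ against 2.66 ± 3.88 CPM in Eln-/- (SD), where that 1 library had 9.35 CPM. The fitted log2 fold change of Abcc8, 4.31 ± 1.98 (SE), may also depend on the prior count where libraries are at 0. It had an unadjusted p of 0.051 and an adjusted p of 1.00 by edgeR.

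Among the other ligands and receptors of the platelet-derived growth factor family, 5 of 6 were tested. By edgeR 0 were called in either direction and 0 had an unadjusted p under 0.05, and the median log2 fold change was 0.13 with 3 positive and 2 negative. Pdgfra, the receptor of mesenchymal and fibroblast cells, had 86.3 ± 65.3 CPM in Eln+/+ against 44.0 ± 40.9 CPM in Eln-/-. Pdgfrl, a receptor-like protein, had 68.9 ± 34.0 and 103 ± 97.3 CPM, and Pdgfd, a ligand of PDGFR-beta, had 30.7 ± 21.7 and 16.0 ± 16.6 CPM. Pdgfb, the ligand made by endothelium, had 106 counts over all libraries, 87 of them in a single Eln-/- library at 3.28 CPM, and 0 in 5 libraries. The cells were sorted as CD31-, and the part of that gate in these counts was not tested.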

How the data were processed

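RNA of sorted cells was sequenced by the submitters after low-input mRNA library preparation, per the labels' protocols. The authors deposited estimated counts per gene, aligned with STAR to mm10 with DESeq2 also used, per the submitters' processing notes. The sources used here do not give the counting program, the annotation or the strand setting, so reads of overlapping antisense genes may not be separated. Of the values 23.5% to 48.8% per library were not whole (tolerance 1e-06), and all were rounded to whole numbers. Of 28165 genes, 27045 (96.0%) had the same span as in GENCODE release M21, which gave identifiers, positions and exon lengths.

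The main test was edgeR 4.0.16 (quasi-likelihood, R 4.3.3) between the genotypes, 5 libraries each, with TMM scaling, edgeR's expression filter (15718 genes kept), and Benjamini-Hochberg adjustment over all genes tested at a threshold of 0.05. CPM were taken on TMM-scaled library totals. Alternatives used DESeq2 1.42.0, limma 3.58.1, other filters, scalings and sample sets. The members and gene lists were chosen with earlier results of these data known. Named were the 7 members, Eln, up to 3 genes with the highest mean CPM of each other pathway list and any past the threshold. Pdgfb, Gna14, single cell type markers and the gene overlapping Abcc9 were named outside this rule. Also named were the 3 genes nearest in pattern to each of Rgs5, Kcnj8 and Pdgfrb. These came from genes whose log2 of the mean CPM was at least 5.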

Additional observations from a re-analysis of the deposited data

Results flagged for a closer look

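In each of the 14 groups of 5 libraries (7 genes in 2 genotypes), the highest and lowest log2 CPM were checked for a gap above 0.71 of the group's range, which chance gives in about 1 group of 20. This marked 2 values, both in Eln-/- replicate 4. Kcnj8 stood there at 0.290 CPM, where the remaining 4 Eln-/- libraries had 94.3 to 204 CPM, a gap of 0.880 of the range. Rgs4 stood there at 16.6 CPM, where the others had 118 to 207 CPM, a gap of 0.776 of the range. Rgs4 was about as low in Eln+/+ replicate 1, at 14.4 CPM, which was not marked.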

How the results depend on the processing

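Across 20 alternatives, 10 of which left out a library, no member passed the threshold. The adjusted p ran from 0.656 to 1.00 for Rgs5 and was at least 0.962 for the others (edgeR, DESeq2 or limma). Rgs5, Rgs4 and Rgs2 kept a positive fold change in each alternative, with log2 fold changes of 0.47 to 1.37 for Rgs5, 0.0095 (without Eln+/+ replicate 1) to 0.57 for Rgs4, and 0.16 (without Eln-/- replicate 1) to 2.43 (limma-voom) for Rgs2. Leaving out 1 library at a time, the log2 fold change ran from -0.57 to 0.024 for Kcnj8 (positive without Eln-/- replicate 4), and from -1.19 (without Eln-/- replicate 1) to 0.15 for Abcc9. It ran from -0.30 to 1.05 for Pdgfrb and from -0.38 to 1.91 for Cspg4, lowest without Eln-/- replicate 1 and highest without Eln+/+ replicate 2. Abcc9 stood at 0.33 in the 7 libraries with the most genes. The cause of these reversals was not tested.

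Genes past the threshold numbered 0 with edgeR, 6 with DESeq2, 2 with limma-voom, 7 with sample quality weights, 0 to 1 leaving out 1 library (1 without Eln-/- replicate 1), and 1 without Eln+/+ replicate 2 and Eln-/- replicate 1. With the replicate number as a block (replicate block), 0 genes passed, and the log2 fold change was -0.52 for Pdgfrb, -0.057 for Cspg4, 0.83 for Rgs5, 0.24 for Rgs4, 1.92 for Rgs2, -0.52 for Kcnj8 and -1.06 for Abcc9. Same-numbered libraries deviated with correlations of -0.56 to 0.51, and 1 of 5 correlated best with its own number. These deviations also carry differences in depth and scaling, so they do not settle whether the numbers pair the libraries. Scaling to total counts without a further factor was chosen after seeing the data. With 1 to 5 counts in single libraries, the levels of Rgs2, Kcnj8 and Cspg4 there are limited by counting.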

Other observations

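Gna14, an alpha subunit of the Gq class on which RGS proteins act, was chosen after its values were seen. It stood at 4.56, 28.7, 6.78, 11.5 and 22.7 CPM in Eln+/+ replicates 1 to 5, and the Eln-/- libraries, in the same order, had 74.9, 80.9, 80.3, 9.73 and 25.2 CPM. The 3 highest libraries were Eln-/- replicates 1 to 3, and the 2 Eln-/- libraries with few genes lay among the Eln+/+ values. The means were 14.8 ± 10.4 and 54.2 ± 34.1 CPM, with a log2 fold change of 1.87 ± 0.72 (SE) and an unadjusted p of 0.0237, which did not pass adjustment by edgeR over all genes tested.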
